A study of Arabidopsis thaliana with 4 samples.

Results

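Among the transcripts that gave a strong signal in wild-type Arabidopsis seedlings, 39 stood lower in the exo70A1-2 mutant on both mutant arrays, and their genes encode chloroplast enzymes, wall and secreted proteins, a calcium-binding protein and chaperones. They were chosen on the deposited signals themselves: a probe set of 1 gene had to reach a signal of 400 on both Col-0 arrays, and its lower Col-0 signal had to be at least 1.4 times its higher exo70A1-2 signal. BCAT4, STZ and genes encoded in the plastid were left out by the same rule, of which only BCAT4 met both criteria. The 39 probe sets belong to 39 genes and make up 6.50% of the 600 single-gene probe sets that reached 400 on both Col-0 arrays, outside the genes left out. A signal of 400 on both Col-0 arrays was reached by 1606 of all 22746 probe sets that are not controls, or 7.06%. Since the choice used the contrast of mutant and wild type, the lower signal in the mutant is a description here and carries no test.

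RNA was hybridised to 4 one-colour ATH1 arrays, 2 for Col-0, the wild type, and 2 for exo70A1-2, a mutant of EXO70A1 in the Col-0 strain. All 4 samples were whole seedlings of 1.0 week, kept under constant light at 22 °C on upright plates of agar medium. For all of them 3 days of cold, 65% humidity, 1.6% agar and 75 seeds per plate are given. The labels name 1 mutant allele and do not say what the lesion is, how many seedlings made up a sample, or whether replicates are separate cultures, and the p-values below cover only array-to-array spread, possibly technical. The number of arrays limits the precision. Shoot and root genes were bright in both genotypes: RCA, rubisco activase of the leaf, gave signals between 4629 and 5572, and PYK10, a glucosidase abundant in roots, between 4356 and 4551. A pollen gene, AT5G45880, stayed between 0.490 and 1.82. No probe set was named for EXO70A1 (0 of 22746), so the genotype labels could not be checked on it.

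EXO70A1 is a subunit of the exocyst, which holds vesicles arriving from the Golgi at the cell surface until fusion. Wall enzymes, secreted peptides and membrane-anchored proteins reach the cell surface by this vesicle route. Proteins of the chloroplast stroma and thylakoids that are encoded in the nucleus take another route: they are made in the cytosol and imported through the chloroplast envelope. Transcript signals measure neither route directly. In RNA of whole seedlings, fewer cells of a type and less of a transcript in each cell cannot be told apart.

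The mean Col-0 signal of the 39 was 1.48 to 3.67 times the mean mutant signal, with 13 of them at 2 or more and 3 at 3 or more. On the log2 scale the fold changes, mutant over Col-0, ran from -1.88 to -0.57 with a median of -0.84. The median over the other 561 abundant single-gene probe sets was -0.10, and that over all 13648 probe sets tested was -0.00. Both mutant arrays lay under both Col-0 arrays for 48.5% of the 600, a share that includes the 39, for which the rule requires it. The 600 were chosen for a high signal on the Col-0 arrays alone, which can by itself tilt the set towards lower mutant values. Neither this share nor the median of -0.10 can therefore show that abundant transcripts outside the 39 were lower in the mutant. All 39 passed the fit across all probe sets (limma, adjusted p under 0.05, lower), which 15.2% of the 600 abundant probe sets and 7.50% of all probe sets tested did, while 8.54% of all were called higher. That count follows from the choice and is read no further.

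**Figure D1:**
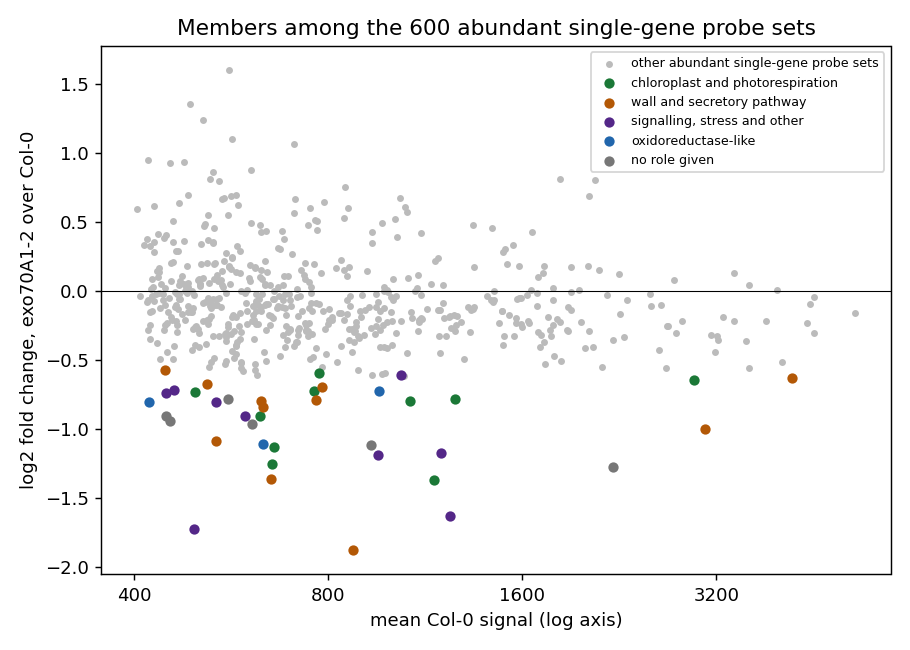
Log2 fold change of mutant over Col-0 against mean Col-0 signal (log axis) for the 600 abundant single-gene probe sets, 1 point each. The 39 members, coloured by role, lie between -1.88 and -0.57, and the other 561 points, in grey, have a median of -0.10.

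By the roles assigned here, 10 members act in the chloroplast or in photorespiration, the salvage of the product that rubisco makes with oxygen. Where the proteins of the other roles are located was not looked up, so 10 need not be a full count. THIC, which makes the pyrimidine moiety of thiamin in the chloroplast, gave signals of 1227 and 1107 on the Col-0 arrays and 447 and 455 on the mutant arrays, a log2 fold change of -1.37 (SE 0.11). CHL, the chloroplast lipocalin, which protects thylakoid lipids under stress, gave 726 and 582 in Col-0 and 268 and 278 in exo70A1-2. NdhN, a subunit of the NADH dehydrogenase-like complex of cyclic electron flow, gave 666 and 650 against 313 and 289. For these 3 genes the Col-0 mean was 2.18 to 2.59 times the mutant mean, and the arrays of each genotype lay close together except for CHL in Col-0, where replicate 1 was 1.25 times replicate 2.

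Carbon metabolism was represented by PWD, AT1G56190 and AT1G11860. PWD, the phosphoglucan water dikinase that prepares starch for breakdown, gave 606 and 647 in Col-0 and 321 and 347 in the mutant. AT1G56190, a chloroplast phosphoglycerate kinase of the Calvin cycle, gave 1306 and 1214 against 751 and 710. AT1G11860, the aminomethyltransferase (T protein) of the mitochondrial glycine cleavage system, gave 3003 and 2908 against 1858 and 1932, with a log2 fold change of -0.64 (SE 0.09). Each of the 3 had both mutant arrays well under both Col-0 arrays, with replicates within 1.08-fold of each other.

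The other members placed in this role serve protein assembly and redox chemistry. AT3G52960, a peroxiredoxin of the chloroplast, which reduces peroxides, had signals of 1110 and 1028 in Col-0 and 653 and 581 in the mutant. For Cpn60beta2, a chaperonin subunit that folds imported proteins, they were 816 and 705 against 480 and 440. For AT3G04550, a rubisco accumulation factor that helps rubisco subunits assemble, they were 488 and 505 against 331 and 269. AT1G54500, which encodes a rubredoxin-like protein, was among the members closest to the rule's limit, at 766 and 781 against 531 and 492.

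**Figure D2:**
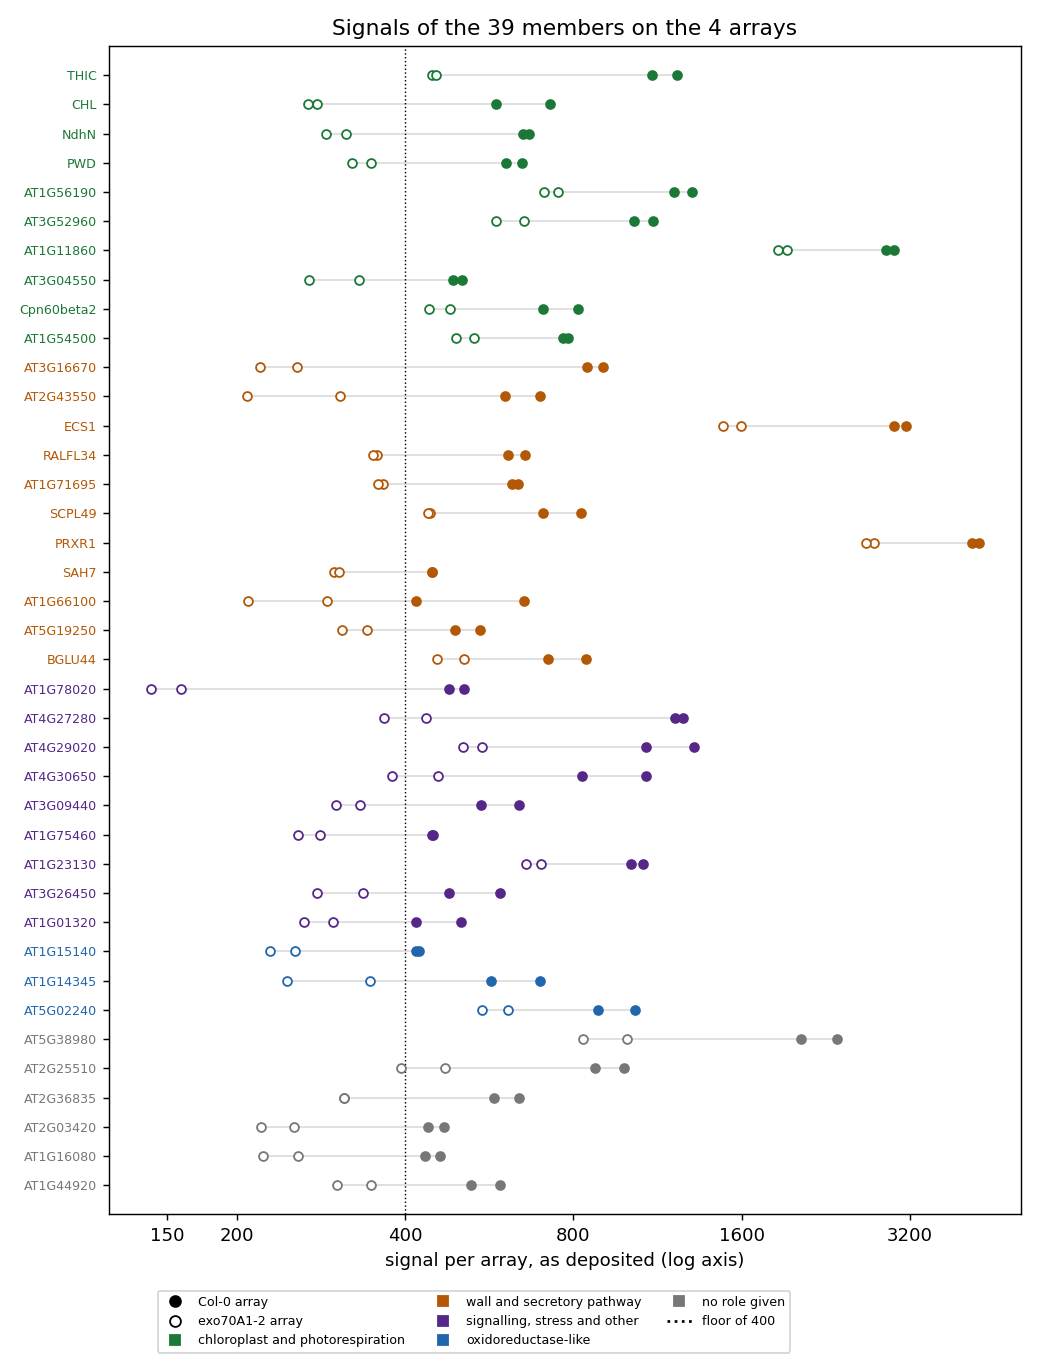
Signal on each of the 4 arrays (log axis) for the 39 members, grouped by role and ordered within a role by the ratio of the lower Col-0 to the higher mutant signal. Filled points are Col-0 arrays, open points exo70A1-2 arrays, and the dotted line is the floor of 400; in every row the open points lie left of the filled ones, as the rule requires.

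A further 11 members encode proteins of the wall or of the secretory pathway. AT3G16670, of the family that shares the Ole e 1 allergen domain, had the widest gap of all 39, with 846 and 902 in Col-0 and 220 and 257 in exo70A1-2 and a log2 fold change of -1.88 (SE 0.12). SAH7, of the same allergen family, had the narrowest difference of means among the 39, with 448 and 446 against 298 and 304 (log2 fold change -0.57, SE 0.11). ECS1, a protein of the cell wall first described with resistance to Xanthomonas, gave 3154 and 2998 against 1596 and 1483. The ratio of the lower Col-0 to the higher mutant signal thus ran within this group from 1.42 for BGLU44 to 3.29 for AT3G16670.

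Both class III peroxidases among the 39, enzymes that cross-link or loosen wall polymers, showed narrow spreads. PRXR1 gave 4260 and 4136 in Col-0 and 2759 and 2668 in the mutant. AT1G71695 gave 636 and 620 against 366 and 357. In each of them replicate arrays differed by about 1.03-fold or less, while the Col-0 mean was 1.55 times the mutant mean for PRXR1 and 1.74 times for AT1G71695.

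Small secreted peptides and defence proteins were a further set. RALFL34, a RALF peptide, a class of signals read by receptor kinases at the cell surface and known for RALFL34 in lateral root formation, gave 610 and 656 in Col-0 and 356 and 350 in the mutant. AT2G43550, a defensin-like peptide, gave 698 and 603 against 306 and 209. AT1G66100, a thionin, gave 653 and 419 against 290 and 209. The last of these had the widest spread within Col-0 of all members, 1.56-fold between its replicates, and AT2G43550 the widest within the mutant, 1.47-fold.

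The other secretory members were enzymes and an anchored protein. SCPL49, a serine carboxypeptidase-like protein, gave 825 and 705 against 443 and 439. BGLU44, a beta-glucosidase, gave 843 and 722 against 510 and 455. AT5G19250, a GPI-anchored protein of the plasma membrane, gave 545 and 492 against 342 and 308. BGLU44 and AT5G19250 lay near the limit of the rule, at ratios of 1.42 and 1.44.

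Signalling, stress response or other functions take in 9 members, which hold the second and the third widest gaps. AT1G78020, a small zinc finger protein of the FCS-like family that binds the energy-sensing kinase SnRK1, gave 509 and 479 in Col-0 and 158 and 140 in exo70A1-2 (log2 fold change -1.73, SE 0.12). AT4G27280, an EF-hand protein that binds calcium, gave 1219 and 1255 against 436 and 366 (log2 fold change -1.63, SE 0.12). For AT3G09440, a cytosolic HSP70 chaperone, the signals were 641 and 548 against 332 and 301. All 3 had Col-0 means at least 1.88 times their mutant means.

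The rest of this set differed less or varied more. AT4G29020, a glycine-rich protein, gave 1078 and 1314 in Col-0 and 548 and 508 in the mutant. AT4G30650, of a family of small membrane proteins that respond to cold and salt, gave 1080 and 830 against 457 and 378. In both, replicates of Col-0 lay 1.22-fold and 1.30-fold apart, well under the gap to the mutant arrays. AT1G23130 and AT3G26450, which both belong to the Bet v 1 family of ligand-binding proteins, gave 1064 and 1013 against 701 and 658, and 591 and 479 against 336 and 278. AT1G75460, which holds a domain of the LON proteases, gave 449 and 447 against 281 and 257. AT1G01320, a tetratricopeptide repeat protein, came last of the 39, with 419 and 504 against 264 and 297.

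AT1G01320 was the 1 member gene with another single-gene probe set. That second probe set gave 118 and 146 in Col-0 and 90.6 and 107 in the mutant, a log2 fold change of -0.42. It points the same way, with both mutant arrays under both Col-0 arrays, by a smaller amount.

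Another 3 members are oxidoreductase-like proteins whose substrates are not given here. AT1G15140 gave 419 and 424 in Col-0 and 254 and 229 in the mutant. AT1G14345 gave 697 and 570 against 347 and 245, and AT5G02240 gave 1029 and 887 against 610 and 550. The replicates of AT1G15140 were the closest of the 3 in Col-0, 1.01-fold apart, and those of AT1G14345 the widest in the mutant, 1.41-fold apart.

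For 6 members no role is given. AT5G38980 gave 2375 and 2046 in Col-0 and 996 and 831 in exo70A1-2 (log2 fold change -1.28, SE 0.12). AT2G25510 gave 987 and 876 against 470 and 392, and AT2G36835 gave 577 and 640 against 311 and 311. The Col-0 mean of these 6 was 1.72 to 2.42 times the mutant mean. AT2G03420 gave 469 and 439 against 253 and 221, AT1G16080 gave 435 and 462 against 257 and 223, and AT1G44920 gave 592 and 524 against 348 and 302.

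By role the median log2 fold changes were close to each other: -0.79 for the 10 chloroplast and photorespiration members, -0.80 for the 11 wall and secretory members, -0.91 for the 9 signalling and stress members, -0.80 for the 3 oxidoreductase-like members and -0.95 for the 6 without a role. The roles were assigned after the members were known, so no difference between them was tested. The rule set the lower Col-0 signal against the higher mutant signal, which by itself works against a wide spread within a genotype. The members' spread is therefore given beside that of the other abundant probe sets as a description only. Replicates of Col-0 differed by a median of 1.08-fold in the 39 and 1.09-fold in the other 561, and replicates of the mutant by 1.11-fold and 1.07-fold. Mutant replicate 1 was the higher of the mutant arrays for 32 of the 39 members (82.1%) and for 62.6% of the other abundant probe sets. The 7 exceptions were AT3G16670, THIC, CHL, PWD, AT1G11860, SAH7 and AT1G01320.

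Values just inside and just outside the limits show no break there. On the inside of the fold limit stood AT1G54500, AT5G19250, AT3G26450, BGLU44 and AT1G01320, at ratios from 1.44 down to 1.41. Just outside stood LrgB at 1.397, SBPASE at 1.37, ATHM2 at 1.37, AT5G48790 at 1.36 and AT3G26580 at 1.35. SBPASE, a bisphosphatase of the Calvin cycle, and ATHM2, an m-type thioredoxin of the chloroplast, gave ratios a little under those of the chloroplast members described above. At the signal floor, the lower Col-0 signal was 419 for AT1G15140, AT1G01320 and AT1G66100. Under it were GH9C2, with a lower Col-0 signal of 396, AT2G41090 with 392 and AT1G49750 with 372, whose ratios of 1.61, 3.33 and 2.098 would have met the fold limit. Of probe sets with several genes or no name, 76 of 961 that reached the floor met the same fold limit, or 7.91%, and these are not described here. The mirror rule, with both mutant signals at 400 or more and the lower of them at least 1.4 times the higher Col-0 signal, was met by 53 of 662 single-gene probe sets. BCAT4, STZ and genes encoded in the plastid were not left out of that count. Its base is therefore unlike the 600 from which the members came.

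The array pairs gave a view of the difference on arrays that a choice had not used. The probe sets chosen this way are a wider set than the 39, whose rule used all 4 arrays. Each such set holds all 39, which reach 1.4-fold on the other arrays by their own rule. The shares below are therefore no separate evidence for the 39. Replicates may not be separate cultures, so the shares below describe repeatability between arrays, possibly technical, and carry no test. When the same limits were applied to Col-0 replicate 1 and mutant replicate 1 alone, 84 single-gene probe sets met them. On Col-0 replicate 2 and mutant replicate 2, which had no part in that choice, all 84 were lower in the mutant and 55 of them (65.5%) again reached 1.4-fold. Of all 647 single-gene probe sets with a signal of 400 on Col-0 replicate 1, 64.3% were lower and 12.5% reached 1.4-fold on those same arrays. For the other 3 ways of choosing on 1 array of each genotype, 88.6% to 96.3% of the chosen probe sets were lower on the remaining arrays and 34.8% to 73.7% reached 1.4-fold, against 57.7% to 66.1% and 8.50% to 17.8% of all abundant probe sets there. The lowest of these shares came from choosing on Col-0 replicate 1 and mutant replicate 2, where the median ratio went from 1.61 on the arrays of the choice to 1.26 on the other arrays. Across the 600 abundant probe sets, the log2 ratios of the replicate 1 arrays and of the replicate 2 arrays had a Pearson correlation of 0.89 and a Spearman correlation of 0.84. Across the 39 members these were 0.88 and 0.84. These correlations describe probe sets on the same 4 arrays, which are not independent replicates, and the members' range was cut by the rule.

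**Figure D3:**
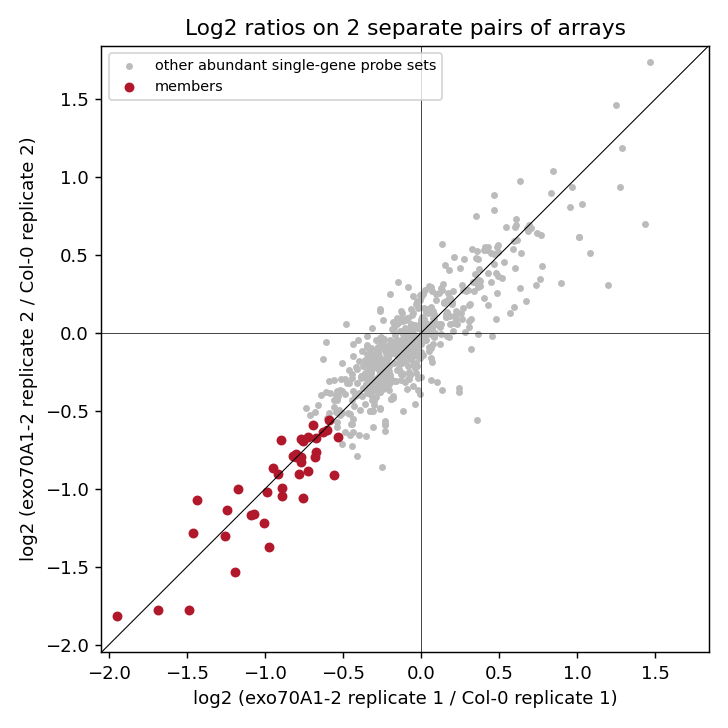
Log2 ratio of mutant to Col-0 on the replicate 1 arrays (horizontal axis) and on the replicate 2 arrays (vertical axis) for the 600 abundant single-gene probe sets, with the line of equal ratios. The 39 members, in red, lie in the lower left corner along that line; across all 600 points the Pearson correlation is 0.89.

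Other genes of the members' pathways were counted in lists. In the Calvin cycle list 4 of 21 genes were named and tested, and 3 fell: the member AT1G56190, SBPASE by 0.56 (SE 0.10, adjusted p = 0.0085) and PRK, the phosphoribulokinase that makes the acceptor for carbon dioxide, by 0.44 on the log2 scale (SE 0.10, adjusted p = 0.0207, limma here and below). SBPASE gave 2844 and 2496 in Col-0 and 1804 and 1818 in the mutant. RCA stood at -0.16 and did not pass. The call of AT1G56190 follows from the choice, and without it 2 of 3 fell. Across all 7231 named genes tested, 6.54% were called lower and 7.58% higher, with a median log2 fold change of 0.00. The call for PRK ended without exo70A1-2 replicate 1, at an adjusted p of 0.0890, and without exo70A1-2 replicate 2, at 0.165, which left 2 of 4 lower, and without the intensity trend 1 of 4 was lower.

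Photorespiration was covered by 3 genes, of which only the member AT1G11860 fell. HPR, the hydroxypyruvate reductase of the peroxisome, stood at -0.32 (adjusted p = 0.0609), and AT1G80380, the glycerate kinase, at 0.35 (adjusted p = 0.0844). In a list of glycine decarboxylase subunits drawn up once the members were known, 3 of 10 were tested. AT1G32470, an H protein of that complex, gave 2319 and 1940 in Col-0 and 1540 and 1359 in the mutant and fell by 0.55 (SE 0.12, adjusted p = 0.017), a call that ended without exo70A1-2 replicate 2 (adjusted p = 0.130). AT2G35120, another H protein, stood at -0.02 and did not pass.

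Genes of the light reactions had no common direction. Of 4 nuclear photosystem genes tested and 3 of chlorophyll synthesis, 0 passed by limma, and 1 and 0 of them had an unadjusted p under 0.05, with log2 fold changes of -0.30 for PSAE-1, 0.08 for PSBY, 0.18 for PORB and 0.04 for CHLM, the brightest of each. Among 3 light-harvesting genes of the LHCB4 antenna family, LHCB4.3 fell by 1.62 (SE 0.15, adjusted p = 0.000379), with 160 and 152 in Col-0 and 53.1 and 48.1 in the mutant. LHCB4.2 rose by 0.81 (SE 0.20, adjusted p = 0.0289), with 2548 and 1598 against 3957 and 3148, a call that ended without exo70A1-2 replicate 1 (adjusted p = 0.0544). LHCB4.1 stood at -0.09 and did not pass.

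The lists around single chloroplast members, drawn up once the members and earlier results of these data were known, held few tested genes each. For the NDH complex, NdhL gave 538 and 526 in Col-0 and 393 and 367 in the mutant and fell by 0.49 (SE 0.11, adjusted p = 0.0198), whereas NdhS stood at -0.40 with Col-0 signals of 926 and 487 and did not pass. Without exo70A1-2 replicate 1 or replicate 2 the adjusted p of NdhL was 0.0636 or 0.175, which left the member NdhN as the only call of the 3. For starch breakdown, DPE1, the disproportionating enzyme that recycles maltotriose, fell by 0.96 (SE 0.13, adjusted p = 0.00209), beside PWD at -0.91. These were the 2 tested of 16 listed genes. The earlier list for sugar and starch, which also holds DPE1, had 3 tested genes, of which 1 fell and 1 rose. In it AT1G62660 rose by 0.63 (SE 0.12, adjusted p = 0.00879), and by 0.57 without exo70A1-2 replicate 2. SBE2.2 stood at -0.04 and did not pass.

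Chaperonins and rubisco assembly factors had 8 tested genes, and 3 fell. The calls of the members Cpn60beta2 and AT3G04550 follow from the choice, and 1 of the other 6 fell. This was Cpn60beta4, with 200 and 207 in Col-0 and 101 and 118 in the mutant (log2 fold change -0.90, SE 0.14, adjusted p = 0.004). Cpn60beta3 stood at -0.12, and AT5G28500, the other rubisco accumulation factor of this kind, at -0.36, and neither passed. Without exo70A1-2 replicate 2 the call of AT3G04550 ended and 2 of 8 were lower. Of 3 peroxiredoxins, AT3G11630, a 2-Cys enzyme of the chloroplast, fell by 0.36 (SE 0.10, adjusted p = 0.0404), and PRXIIF of the mitochondrion stood at -0.11 and did not pass. The call for AT3G11630 ended without Col-0 replicate 1 (adjusted p = 0.0608), without exo70A1-2 replicate 1 (0.107), without exo70A1-2 replicate 2 (0.391) and after quantile normalization (0.0999). Of thiamin genes other than THIC, AT5G32470 stood at -0.03 and AT3G24030 at -0.22, and 0 of these 2 passed by limma, or reached an unadjusted p under 0.05. TIL, the other lipocalin, rose by 0.55 (SE 0.13, adjusted p = 0.0224) while CHL stood at -1.25, and the call for TIL ended without exo70A1-2 replicate 2 (adjusted p = 0.118).

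**Figure D4:**
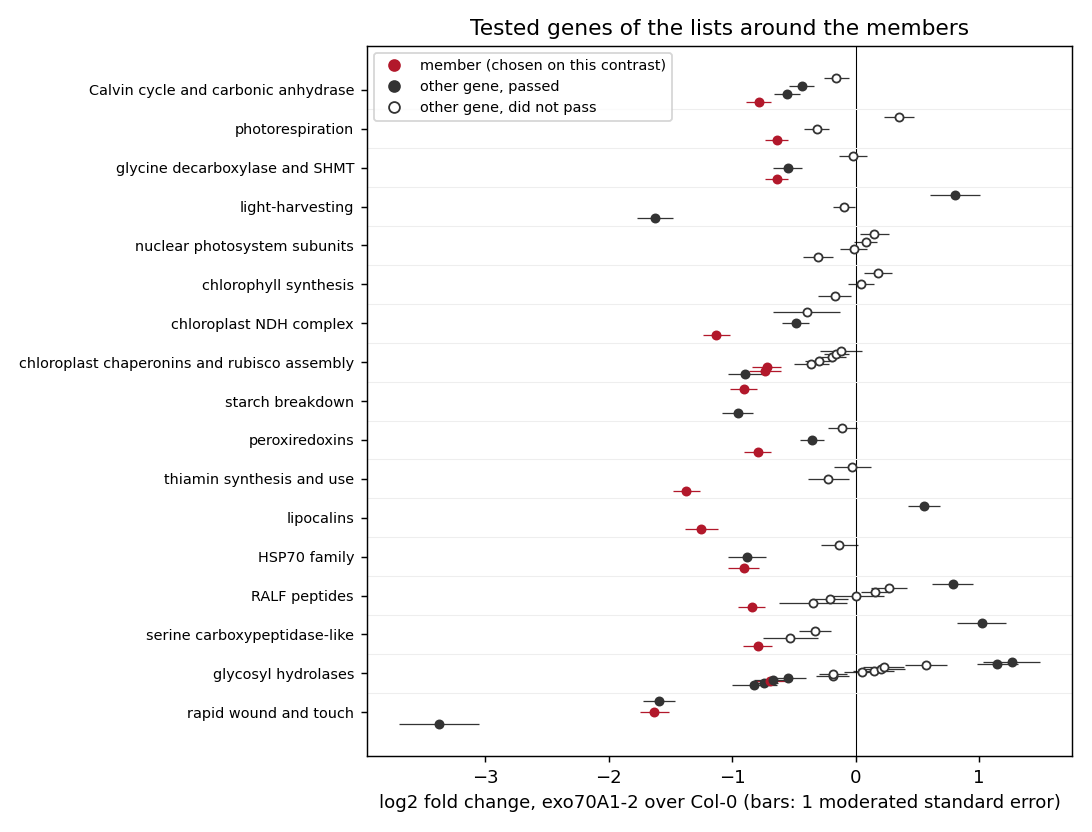
Log2 fold change of mutant over Col-0 with 1 moderated standard error for each tested gene of 17 lists around the members, 1 row per list. Red points are members, which were chosen on this contrast, filled dark points other genes that passed and open points genes that did not; the Calvin cycle row runs from -0.79 to -0.16 and the light-harvesting row from -1.62 to 0.81.

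Relatives of the wall and secretory members went both ways. Among 7 tested RALF genes RALFL34 was the 1 lower call, and RALFL22 rose by 0.79 (SE 0.17, adjusted p = 0.0154), with 285 and 365 in Col-0 and 487 and 637 in the mutant. Without exo70A1-2 replicate 2 the call of RALFL22 ended (adjusted p = 0.0773). RALFL33, with a log2 fold change of 0.15, did not pass. Of 4 tested SCPL genes, SCPL34 rose by 1.02 (SE 0.20, adjusted p = 0.0113) beside SCPL49 at -0.79, and SCPL45 stood at -0.33 and did not pass.

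Of 14 tested glycosyl hydrolase genes, cellulases of the GH9 family and beta-glucosidases, 5 fell and 2 rose, with a median log2 fold change of -0.07. Without the member BGLU44, whose call follows from the choice, 4 of 13 fell and the median was 0.05. GH9C2, which missed the signal floor, fell by 0.74 (SE 0.11, adjusted p = 0.00396), GH9B8 by 0.82 (SE 0.18, adjusted p = 0.0183), and BGLU44 stood at -0.69. BGLU46 rose by 1.15 (SE 0.16, adjusted p = 0.00291). BGLU45 gave 14.99 and 13.98 in Col-0, under the dim limit of 21.9, and was at least 1.59-fold higher in the mutant, taking the mean of log2 mutant signals over that limit (adjusted p = 0.0085). GH9B7 stood at -0.18 and did not pass. The call for GH9B8 ended without Col-0 replicate 1 (adjusted p = 0.0527) and without exo70A1-2 replicate 2 (0.0686). The count that fell was 3 without Col-0 replicate 1 or exo70A1-2 replicate 1 and 2 without exo70A1-2 replicate 2. The list of class III peroxidases found only 1 gene and missed the members PRXR1 and AT1G71695, so it does not cover the family. That gene, Prx37, rose by 0.64 (SE 0.16, adjusted p = 0.0300). Its call ended without either exo70A1-2 array, with a rise of 0.70 without replicate 1 and 0.57 without replicate 2.

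For the signalling and stress members, the 3 tested genes of the wound and touch list, AT4G27280, STZ and ORA47, all fell, with log2 fold changes of -1.63, -1.59 and -3.38. The list was written with these changes known, so their count is no separate evidence. Of 4 tested genes with a CML symbol, for calmodulin-like, 0 passed by limma, with 0 at an unadjusted p under 0.05, and they ran from -0.22 to 0.39. Calmodulin-like genes under other names or a locus tag only were not counted, so the family is not covered. In the HSP70 list Hsp70-2, a cytosolic relative of AT3G09440, gave 104 and 106 in Col-0 and 61.1 and 52.9 in the mutant and fell by 0.88 (SE 0.16, adjusted p = 0.00729), while AT4G16660 stood at -0.13 and did not pass. Signals of near-identical gene copies could not be told apart here. Without the intensity trend, the adjusted p of the pathway genes SBPASE, PRK, NdhL, AT1G32470, AT3G11630, LHCB4.2, TIL and RALFL22 lay between 0.0507 and 0.143, and without the filter that of PRK, AT1G32470, AT3G11630, LHCB4.2 and Prx37 between 0.0549 and 0.159, so these calls ended there.

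The genes that lie beside the members on the chromosomes were read in the same way. Of the genes next to the 39, 34 had a single-gene probe set and 22 were bright enough to be tested, and their median log2 fold change was 0.06. By limma 3 of these fell and 1 rose, against 6.54% and 7.58% of all named genes, and the number that fell was 1 without exo70A1-2 replicate 2 2 without either Col-0 array, 4 without exo70A1-2 replicate 1, 1 without the intensity trend and 0 once dim probe sets were kept in the test. Those that fell were AT1G78010, AT4G30660 and AT1G11850, named here because they are so few. AT1G78010 stood at -0.85, and at -0.66 without exo70A1-2 replicate 1. AT1G11850 stood at -1.03, and at -0.63 without exo70A1-2 replicate 2. The gene that rose was AT1G23120, beside the member AT1G23130, by 1.31 (SE 0.25, adjusted p = 0.0093). It gave 31.6 and 19.7 in Col-0, the second under the dim limit of 21.9, and 63.9 and 59.8 in the mutant. AT4G30660, which lies beside AT4G30650 and belongs to the same family, gave 669 and 573 in Col-0 and 470 and 350 in the mutant and fell by 0.61 (SE 0.16, adjusted p = 0.0320). That call ended without Col-0 replicate 1 (adjusted p = 0.0665) and without exo70A1-2 replicate 2 (0.237). No member lay next to another.

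Organ markers were set beside these values. The log2 fold change was -0.16 for RCA and -0.09 for LHCB4.1 of the leaf, -0.04 for PYK10 of the root, 0.16 and 0.22 for the root hair genes EXPA7 and EXPA18, -0.31 for SWEET11 of the phloem and -0.26 for AUR1 of dividing cells. The stomatal genes SPCH, FMA and STOMAGEN all stood below 0, at -0.61, -0.51 and -0.26, of which the first reaches the range of the members. None of these 10 passed (limma), and 3 had an unadjusted p under 0.05. Of the 30 marker genes listed, 11 were named on the array and 10 of them were bright enough to be tested. The part that organ makeup has in the members' difference was not tested.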

How the data were processed

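The values used are the deposited linear intensity of each probe set on each of the 4 arrays. Per the submitters' processing notes, MAS5 and GCOS were used, and versions are not given in the sources used here. The authors' values have a mean, trimmed by 2% at each end, of 100.0 on every array. Log2 of the intensity was taken with no constant and no further scaling, and 64 control probe sets were left out. Probe sets were named through the array's annotation table and the RefSeq gene table of TAIR10.1: 13513 had 1 gene, 503 several and 8730 no name here, and 13436 of the first kind matched RefSeq. Of the 39 members 11 have a symbol and 28 a locus tag only; their roles are background knowledge. Sequences were not used, and gene coordinates served only to find the genes beside the members.

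Probe sets with a mean log2 signal at or above the 40th percentile (a signal of 21.9) were tested with limma 3.58.1 in R 4.3.3, with an intensity trend, two-sided, and Benjamini-Hochberg adjustment over all 13648, threshold 0.05. Lists were counted on the brightest probe set of a gene, with no set test. Patterns meant for gene descriptions were matched to the RefSeq synonyms, so some lists found 0 genes. Matching on symbols took genes of other functions into the list for secretion, which is not reported. The fit was also run on simulated data with normal noise drawn from its own fitted variances, which cannot show the effect of technical replication. The members, the 43 lists and the tests were chosen with earlier results of these data known, and 12 further lists once the members were seen. All members are named. Genes named from lists were up to 4 non-members that passed and up to 2 that did not. Figures were drawn with matplotlib 3.10.9.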

Additional observations from a re-analysis of the deposited data

How the results depend on the processing

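By construction the number of members moved with its limits: 89 at a fold of 1.2, 7 at a fold of 2, 81 with a floor of 200, 14 with a floor of 800 and 69 with the ratio of means. It was 41 with the arrays set to the same median and 37 after quantile normalization, and 42 to 79 with 1 array left out, since fewer signals then had to meet the limits. The highest of these, 79, came without Col-0 replicate 2, and 62 met the rule without exo70A1-2 replicate 1. The members' median log2 fold change stayed between -0.88 and -0.80 in all settings. Without exo70A1-2 replicate 2, 34 of the 39 members passed limma, and without exo70A1-2 replicate 1, 38.

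Probe sets called lower numbered 1024, against 679 without the intensity trend, and higher 1165. With 1 array left out, 396 to 1347 were lower and 577 to 1696 higher, where the single array left is taken to vary as the other genotype does. Both lowest counts came without exo70A1-2 replicate 2. A replicate block gave 2098 lower and 2168 higher. Of 145 tested genes in the 43 lists, 24 were called lower and 17 higher in the main fit. Of the lower ones 4 are members, whose calls follow from the choice. With the block 68 genes of those lists changed, against 41. The lists were chosen with earlier results known, so these counts cannot be set against the share of all probe sets. The members' median of -0.84 is the same with the block. No label ties arrays of equal number together, so the numbers were not taken as pairs; replicate differences correlated at 0.28 across genotypes. The count of changed genes in the 43 lists was 28 to 54 with 1 array left out. Of the genes of the lists that passed, none turned its direction in the settings run; named genes that did not pass were not followed through them. Of the members' neighbours, 5 fell with the replicate block. The cause of these differences was not tested. Signals near background limit what dim genes can show.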
